A study of Mus musculus with 27 samples.

Results

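Livers of 14 male C57BL/6J mice fed ad libitum were divided by their own level of Cidec mRNA. A liver was Cidec-high where the log2 intensity of Cidec was above 8.65, which held for 8 mice, and Cidec-low where it was 8.65 or less, which held for 6 mice. The series comprises 27 livers in all, with 1 mouse and 1 Affymetrix Mouse Gene 1.1 ST array each. The Cidec-high class held 4 mice on the medium fat diet (MF, AIN-93W-MF with 25% of its energy from fat) and 4 on the control diet (C, AIN-93W). The Cidec-low class held 3 mice on MF and 3 on C. Outside the comparison stood 7 mice on the intermittent diet (INT) and 6 mice under a caloric restriction of 30% (CR). On INT, weeks of ad libitum MF alternated with weeks of 40% less energy than the mean intake of mice on AIN-93W. The INT-fed mice were sacrificed in a week of ad libitum MF. All mice started their diet at 9 weeks of age, were housed singly from then on and were sacrificed at 12 months. Before that, each was fasted for 4 h, received a mock gavage of 0.5% carboxymethyl cellulose and was fasted for another 6 h. Mice are named below by their diet and the replicate number of the labels.

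The class of a mouse rests on a measured value and on nothing that was done to it, so the differences below are associations across mice within the ad libitum diets. Cidec was read from 1 probe set (10546929, gene on chromosome 6). Its log2 intensity in Cidec-high livers was 10.78, 10.61, 9.95 and 9.80 in MF-fed mice 4, 3, 5 and 7, and 10.26, 9.65, 9.06 and 8.75 in C-fed mice 5, 7, 4 and 1. In Cidec-low livers it was 8.56, 7.01 and 6.19 in MF-fed mice 2, 1 and 6, and 7.58, 7.35 and 7.35 in C-fed mice 2, 3 and 6. The mice nearest to the limit were thus C-fed mouse 1, just above it, and MF-fed mouse 2, just below it. These values chose the classes and are not tested. The limit also separated the mice as the whole array did: when all 27 livers were clustered on all genes and the tree was divided into 3, the 8 Cidec-high livers fell with INT-fed mouse 1, the 6 Cidec-low livers with the other INT-fed mice, and the CR-fed mice by themselves. In a tree of the 14 livers alone, divided into 2, C-fed mice 1 and 4 joined the 6 Cidec-low livers. Calls between the classes therefore describe how these 14 livers divide and are no independent evidence of a link to Cidec. The relation to Cidec within the INT-fed mice, which the limit did not use, is given last.

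Cidec belongs to a family of proteins that sit where lipid droplets touch and pass triglyceride from the smaller droplet to the larger one. Hepatocytes of a lean mouse contain little Cidec or Cidea, and both are known to become abundant in fatty liver, where the nuclear receptor PPARγ drives Cidec transcription. PPARγ acts on a program of lipid uptake and storage that is otherwise typical of adipocytes, including Cd36, Fabp4, Mogat1 and perilipins. Its relative PPARα, the main form in hepatocytes, drives fatty acid oxidation in fasting.

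Both classes held arrays of like quality. The array median lay between 5.23 and 5.25 log2 units in Cidec-high and between 5.22 and 5.25 in Cidec-low livers, and between 63.8% and 64.9% of probe sets in Cidec-high and between 64.3% and 65.2% in Cidec-low livers exceeded an intensity of 20. Pearson's r between any 2 of the 27 arrays was 0.982 or more. Replicates 1 to 4 and 5 to 7 differed slightly in the spread of their values, with a median interquartile range of 3.63 and 3.73 log2 units among these 14 mice, and both classes had mice on both sides. Hepatocyte markers were abundant in every liver, and 0 of the 12 measured were called by limma (2 at an unadjusted p under 0.05, median log2 difference -0.05). Albumin, Alb, differed by -0.04 log2 units (adjusted p = 0.709). The tissue was whole liver, so fewer cells of a type and less RNA per cell cannot be told apart. Per the methods the mice shared cages in pairs until the diets began. Which of them were cage mates or littermates is not given in the sources used here, and the p-values measure the spread between these mice.

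Because PPARγ and PPARα bind DNA with RXR at 2 copies of AGGTCA in the same orientation with 1 base between them, the bases just upstream of each gene were searched on both strands for 2 copies of AGGNCA with any 1 base between them. Windows ran from 250 bases before to 50 bases after the annotated start (RefSeq, GRCm38.p6), and 0.451% of 27025 genes held the repeat. Of 32 genes, namely Cidec and the called genes named first below, 24 matched the table and 0 held it. Among all genes called higher in Cidec-high livers it stood in 1 of 239 with a window (Ccl6), and among those called lower in 3 of 96 (Cyp2d9, Cyp2d10 and F7). These 4 genes were named after their matches were seen. A match is a description of letters and not a binding site, and binding further away was not looked at. A single AGGTCA stood within the 250 upstream bases of 17.2% of genes called higher, 19.8% of genes called lower and 15.8% of all genes. The upstream bases are shown for the gene that set the classes (2 annotated starts), for its droplet partner Plin4 and the fatty acid transporter Cd36, which had among the clearest differences, and for 3 of the holders of the repeat. Each runs 5′ to 3′ along the strand of the gene and ends at the base before the start, and capitals mark the repeat or, where there is none, a single AGGTCA or its reverse complement.
Cidec, chr6:113434765-113435014, minus strand: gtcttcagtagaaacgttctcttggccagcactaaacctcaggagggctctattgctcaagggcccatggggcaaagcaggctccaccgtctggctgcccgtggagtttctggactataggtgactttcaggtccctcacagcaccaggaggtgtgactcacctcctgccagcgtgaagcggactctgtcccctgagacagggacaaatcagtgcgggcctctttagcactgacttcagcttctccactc
Cidec, chr6:113435761-113436010, minus strand: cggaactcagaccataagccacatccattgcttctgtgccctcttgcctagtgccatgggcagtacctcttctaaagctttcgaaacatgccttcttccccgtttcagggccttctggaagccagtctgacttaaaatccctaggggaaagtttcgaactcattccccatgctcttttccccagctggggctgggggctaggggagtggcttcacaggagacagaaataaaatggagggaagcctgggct
Plin4, chr17:56109783-56110032, minus strand: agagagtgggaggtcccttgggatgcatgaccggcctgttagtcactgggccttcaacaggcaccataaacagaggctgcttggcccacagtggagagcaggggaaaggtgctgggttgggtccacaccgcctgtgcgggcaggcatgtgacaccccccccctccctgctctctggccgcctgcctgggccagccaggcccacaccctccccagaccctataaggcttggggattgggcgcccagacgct
Cd36, chr5:17835897-17836146, minus strand: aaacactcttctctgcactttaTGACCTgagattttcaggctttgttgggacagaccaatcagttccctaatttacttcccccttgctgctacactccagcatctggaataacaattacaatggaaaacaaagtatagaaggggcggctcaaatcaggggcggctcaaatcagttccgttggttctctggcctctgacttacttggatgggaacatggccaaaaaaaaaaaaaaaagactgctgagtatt
Ccl6, chr11:83593088-83593337, minus strand: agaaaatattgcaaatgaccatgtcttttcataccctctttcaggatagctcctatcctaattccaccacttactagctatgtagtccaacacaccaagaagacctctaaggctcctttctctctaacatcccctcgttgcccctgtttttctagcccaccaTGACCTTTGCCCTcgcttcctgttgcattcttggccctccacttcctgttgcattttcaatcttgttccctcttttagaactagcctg
Cyp2d9, chr15:82452127-82452376, plus strand: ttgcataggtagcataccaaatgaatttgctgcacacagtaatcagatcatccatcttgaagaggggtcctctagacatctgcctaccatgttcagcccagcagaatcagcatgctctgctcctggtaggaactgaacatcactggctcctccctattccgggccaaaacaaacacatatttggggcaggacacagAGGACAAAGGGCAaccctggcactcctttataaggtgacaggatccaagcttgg
Cyp2d10, chr15:82407195-82407444, minus strand: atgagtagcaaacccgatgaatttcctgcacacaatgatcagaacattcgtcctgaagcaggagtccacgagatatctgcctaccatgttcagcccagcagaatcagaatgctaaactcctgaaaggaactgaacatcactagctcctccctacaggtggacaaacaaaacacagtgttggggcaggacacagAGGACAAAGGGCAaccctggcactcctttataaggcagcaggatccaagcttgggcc
The repeat of Ccl6 lay on the reverse strand and began 88 bases before the start. Those of Cyp2d9 and Cyp2d10, neighbouring genes of one P450 family, read the same, AGGACAAAGGGCA, at 54 and 57 bases before their starts. Ccl6, a chemokine, was higher in Cidec-high livers (log2 difference 0.83 ± 0.17, adjusted p = 0.018), a call lost without MF-fed mouse 6 (adjusted p = 0.0526). Cyp2d10 was lower (-0.43 ± 0.07, adjusted p = 0.0077), a call that held without any 1 mouse.

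Called higher in Cidec-high than in Cidec-low livers were 5 of 21 genes of lipid droplets, 6 of 17 of fatty acid uptake and 7 of 31 of fatty acid oxidation, Plin4, Cd36 and Pdk4 among them. The droplet count includes Plin4 and Cidea and the uptake count Fabp4, markers chosen with Cidec, so neither count is separate evidence. Cidea passed the minimum intensity of 20 only through the Cidec-high class. Called lower were 9 of 22 male-biased liver genes, with Hsd3b5 at the far end. With diet as a covariate, 412 of the 13602 other genes were called at an adjusted p under 0.05 (3.03%), 295 higher (2.17%) and 117 lower (0.86%) in Cidec-high livers. A difference of at least 2-fold was reached by 31 of the genes called higher and 8 of those called lower. For 159 genes (1.17%) the values of the 2 classes did not overlap at all, 99 with the Cidec-high livers above (0.728%) and 60 with them below (0.441%), and 118 of these were among the called genes. The median difference over all genes was 0.00. The calls split differently when arrays were centred on their medians, with 218 higher and 180 lower. In that setting 54.8% of calls were higher, against 71.6% with the arrays as deposited. The number of calls hung on single mice, MF-fed mice above all. It was 165 without MF-fed mouse 6, the liver of lowest Cidec, 190 without MF-fed mouse 1, 209 without MF-fed mouse 3, 244 without MF-fed mouse 2, 266 without MF-fed mouse 4 and 243 without C-fed mouse 5, and it reached 593 without C-fed mouse 1. All 412 genes kept their sign in each of these fits. Within replicates 1 to 4 alone 25 genes were called and within replicates 5 to 7 alone 64, all 412 with the same sign in both. All of these fits reuse mice in which the 412 were called, so the kept sign is no separate evidence. Within replicates 1 to 4 and within replicates 5 to 7, the median log2 difference was 0.17 and 0.26 for fatty acid oxidation, -0.55 and -0.57 for male-biased genes, 0.58 and 0.54 for female-biased genes, and 0.34 and 0.23 for acute phase genes. With the level of Cidec as a number in place of the classes, 1332 genes were called, 384 of the 412 among them. Without MF-fed mouse 6, 33 of the 76 named genes that were called lost their call, and with the limit of 8, 57 did.

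**Figure D1:**
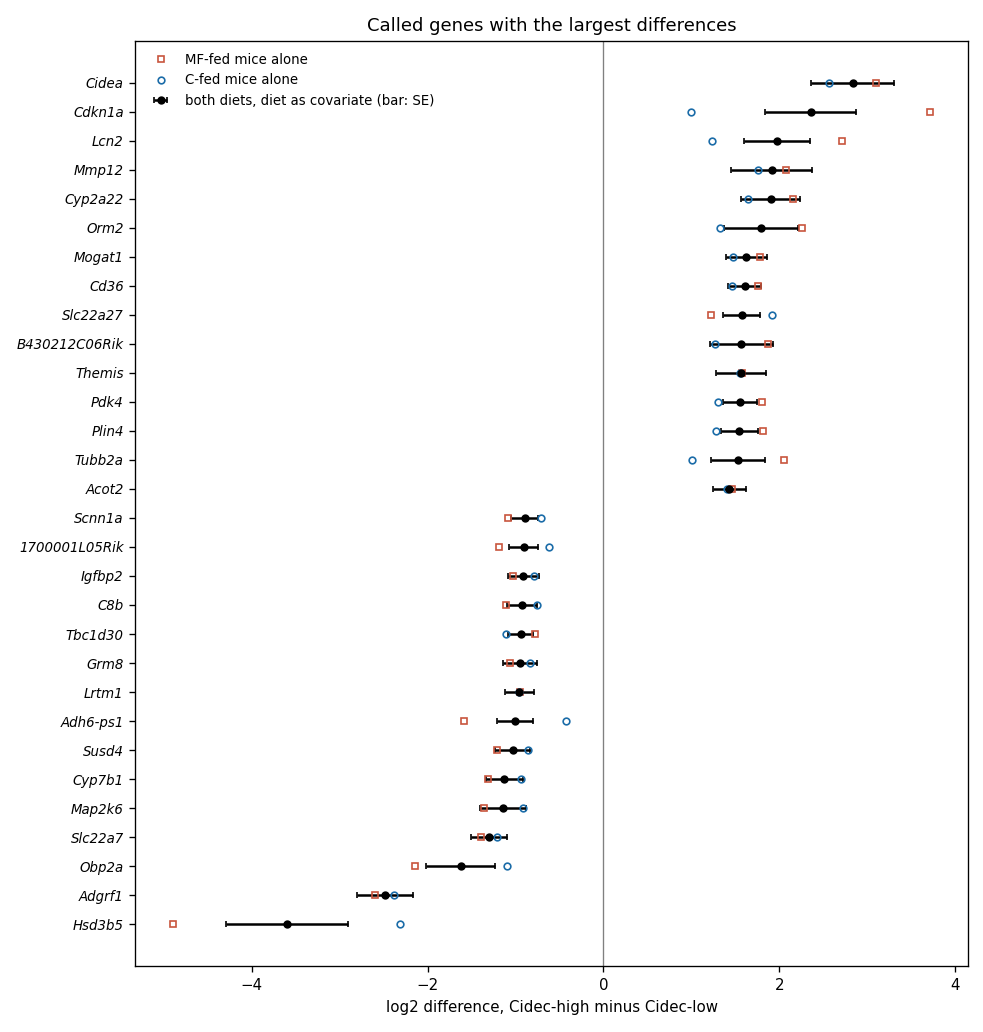
Log2 difference between Cidec-high and Cidec-low livers for the 15 called genes of largest difference in each direction. Filled points give the estimate over both diets with its standard error as a bar, squares the MF-fed and circles the C-fed mice alone. All 30 genes have the same sign in both diets, and Cdkn1a (3.71 in MF-fed, 1.00 in C-fed mice) and Hsd3b5 (-4.89 and -2.31) lie furthest apart.

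The 4 markers that accompany Cidec in fatty liver were all called higher in Cidec-high livers. Plin4, a perilipin that coats lipid droplets, lay at 7.91 to 9.49 (median 8.97) log2 units in Cidec-high livers, against 6.82 to 7.78 (median 7.43) in Cidec-low livers. The 2 classes did not overlap, and the log2 difference was 1.55 ± 0.21, adjusted p = 0.00228 (± SE, as throughout). Cidea, the close relative of Cidec in droplet fusion, showed the largest difference of any gene called higher, 2.83 ± 0.47, adjusted p = 0.0077. It lay at 4.58 to 8.67 (median 7.54) in Cidec-high livers, against 3.70 to 5.34 (median 4.17) in Cidec-low livers, where 4 of the 6 were below the intensity of 20. Cidea was below that intensity in 6 of the 7 INT-fed and all 6 CR-fed livers too. It thus passed the intensity minimum only through the Cidec-high class. The overlap came from C-fed mouse 1, the Cidec-high liver nearest to the limit, in which Cidea was 4.58 and below the value of 2 Cidec-low livers. Mogat1 makes diacylglycerol from monoacylglycerol. It lay at 4.89 to 7.20 (median 6.31) in Cidec-high livers, against 4.03 to 5.39 (median 4.36) in Cidec-low livers, and differed by 1.63 ± 0.24, adjusted p = 0.0041. Fabp4, the fatty acid-binding protein of adipocytes and macrophages, was the least sharp of the markers, at 6.51 to 7.78 (median 7.15) in Cidec-high livers and 6.04 to 6.54 (median 6.46) in Cidec-low livers (0.73 ± 0.17, adjusted p = 0.0344). Its call was lost without any 1 of MF-fed mice 1, 2, 3, 4 and 6 and C-fed mice 2, 5 and 7 (adjusted p up to 0.0893), whereas those of Plin4, Cidea and Mogat1 held in all 14 fits.

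**Figure D2:**
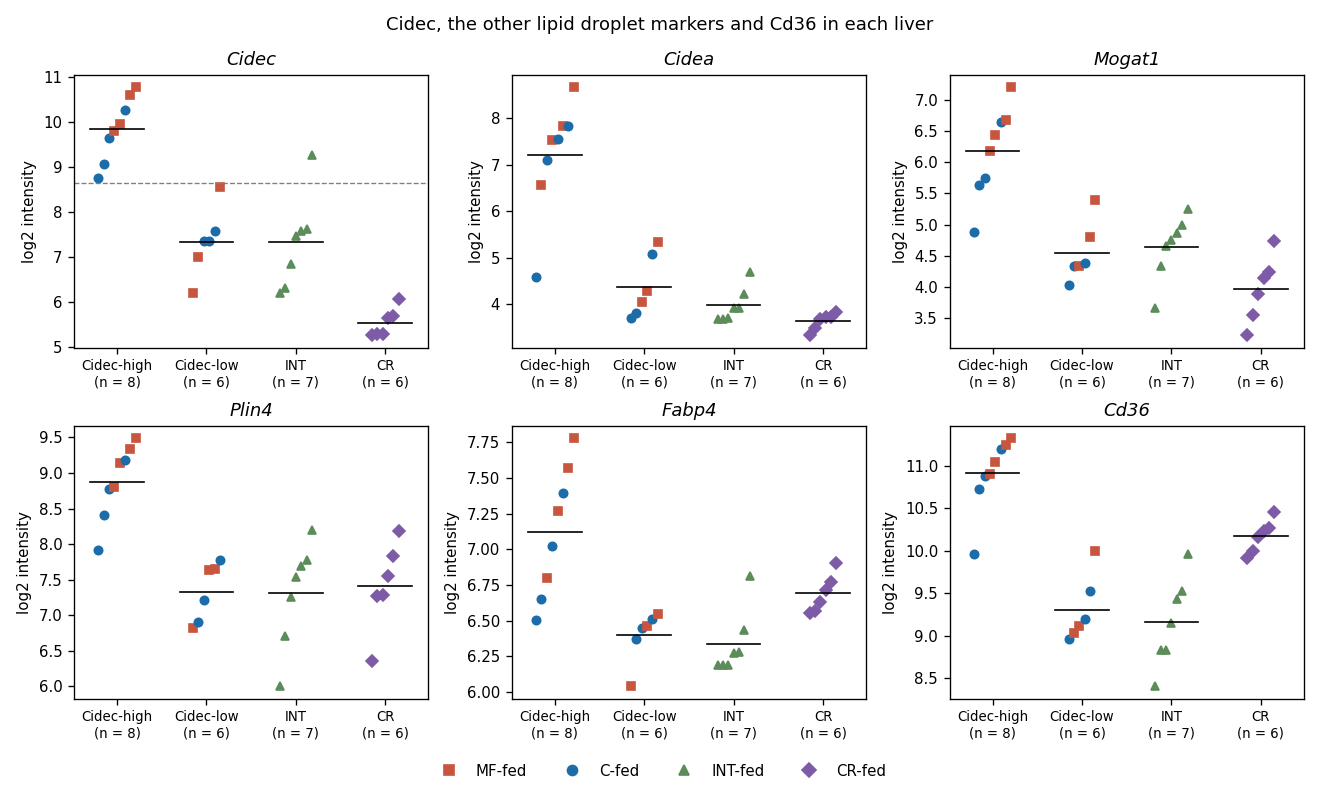
Log2 intensity of Cidec, Cidea, Mogat1, Plin4, Fabp4 and Cd36 in each of the 27 livers, as Cidec-high (n = 8), Cidec-low (n = 6), INT-fed (n = 7) and CR-fed (n = 6) mice, with colour and shape for the diet and a line for the mean. The dashed line in the Cidec panel is the limit of 8.65 that set the classes. In Plin4 no Cidec-low liver reaches the lowest Cidec-high liver at 7.91.

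Among proteins of the lipid droplet, 5 of the 21 genes tested were called higher and 0 lower, between 4 and 5 higher in the fits without 1 mouse, with a median log2 difference of 0.20 against 0.00 over all genes. Beside Plin4 and Cidea these were Hsd17b13, a droplet-bound enzyme of hepatocytes, Fitm1, which binds triglyceride at the endoplasmic reticulum, and Plin2, the main droplet coat of hepatocytes. Hsd17b13 lay at 11.04 to 11.53 (median 11.37) in Cidec-high livers, against 10.86 to 11.04 (median 10.94) in Cidec-low livers (0.39 ± 0.07, adjusted p = 0.00937). Fitm1 differed by 0.61 ± 0.12, adjusted p = 0.0176. Plin2 was abundant in both classes, at 12.00 to 12.49 (median 12.24) in Cidec-high livers and 11.47 to 12.15 (median 11.85) in Cidec-low livers (0.45 ± 0.10, adjusted p = 0.0258), with the call lost without any 1 of MF-fed mice 1, 3 and 6 (adjusted p up to 0.0668). The list holds Cidec's own partners, which guided its choice, so its count is no separate evidence.

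Of the genes of PPARγ and fatty acid uptake, 6 of 17 were called higher and 0 lower. In this list 11 of 17 lay above 0, with a median of 0.23, and between 3 and 7 were called without 1 mouse. Cd36, which carries long-chain fatty acids into the cell, lay at 9.96 to 11.33 (median 10.97) in Cidec-high livers, against 8.96 to 9.99 (median 9.16) in Cidec-low livers, and differed by 1.61 ± 0.19, adjusted p = 0.00158. Its lowest Cidec-high value, 9.96, was again that of C-fed mouse 1. Pparg itself was higher (0.96 ± 0.17, adjusted p = 0.00935), at 8.38 to 9.44 (median 9.15) in Cidec-high livers and 7.60 to 8.45 (median 8.11) in Cidec-low livers, and the highest Cidec-low value only just exceeded the lowest Cidec-high one. Apoa4, an apolipoprotein secreted with triglyceride-rich particles, differed by less, 0.39 ± 0.07, adjusted p = 0.0133, but its classes did not overlap. The remaining calls were the marker Fabp4, which was chosen with Cidec, the lipoprotein receptor Vldlr (0.64 ± 0.15, adjusted p = 0.0383) and the fatty acid transport protein Slc27a4 (0.23 ± 0.06, adjusted p = 0.0402). The calls of Vldlr and Slc27a4 were lost without any 1 of 11 and 10 mice, among them MF-fed mice 1, 3, 4, 6 and 7 and C-fed mice 2, 4, 5, 6 and 7 for each gene, with adjusted p up to 0.1 and 0.105. Fabp5, another fatty acid-binding protein, differed by -0.54 ± 0.19, adjusted p = 0.138 and was not called.

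Enzymes that build triglyceride differed in only a few steps. Of 23 genes of triglyceride synthesis and lipolysis, 3 were called higher and 0 lower (median 0.09), namely Mogat1, Gpat3 and Mgll. Gpat3, which adds the first acyl chain to glycerol 3-phosphate, lay at 6.69 to 7.73 (median 7.27) in Cidec-high livers, against 5.54 to 6.87 (median 6.21) in Cidec-low livers (1.05 ± 0.16, adjusted p = 0.00491). Mgll, which cleaves monoacylglycerol, differed by 0.26 ± 0.07, adjusted p = 0.0413, and its call was lost without any 1 of MF-fed mice 1, 2, 3, 4, 5, 6 and 7 and C-fed mice 2, 3, 4 and 5 (adjusted p up to 0.1). Fatty acid synthesis gave 0 calls in 21 genes, with 4 at an unadjusted p under 0.05 (limma) and a median of 0.06. Fasn, the fatty acid synthase, differed by 0.09 (adjusted p = 0.734), Scd1, which makes monounsaturated fatty acids, by -0.02 (adjusted p = 0.879), and Srebf1, the main transcription factor of the pathway, by -0.09 (adjusted p = 0.776). The members of largest difference were Acacb (0.43 ± 0.14, adjusted p = 0.0924) and Scd2 (0.30 ± 0.15, adjusted p = 0.276), neither called.

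Fatty acid oxidation and PPARα targets held the most calls by number in the direction of Cidec, 7 of 31 higher and 0 lower, between 5 and 8 without 1 mouse. By share of the genes tested other lists held more, such as PPARγ and fatty acid uptake with 6 of 17. Of the 31 genes, 29 were above 0 (median 0.20), and for 7 the classes did not overlap. Over all genes tested, 2.17% were called higher and 0.728% lay higher without overlap. Pdk4 blocks pyruvate dehydrogenase and so the use of glucose carbon. It lay at 8.21 to 9.75 (median 8.90) in Cidec-high livers, against 7.17 to 7.90 (median 7.37) in Cidec-low livers, without overlap (1.55 ± 0.19, adjusted p = 0.00168). Acot2, a mitochondrial thioesterase that releases fatty acids from acyl-CoA, had a median of 10.70 in Cidec-high livers, against 9.48 in Cidec-low livers, again without overlap (1.43 ± 0.19, adjusted p = 0.00196). Crat, which moves acetyl groups between CoA and carnitine, differed by 0.62 ± 0.09, adjusted p = 0.0045, and Vnn1, a pantetheinase and a sensitive PPARα target, by 0.85 ± 0.14, adjusted p = 0.00717. Smaller differences were called for Pex11a, which acts in peroxisome division (0.50 ± 0.09, adjusted p = 0.0137), and Slc25a20, the carnitine-acylcarnitine carrier of mitochondria (0.26 ± 0.06, adjusted p = 0.0226). Cyp4a14, an ω-hydroxylase of fatty acids, lay at 12.15 to 12.75 (median 12.53) in Cidec-high livers, against 8.86 to 12.09 (median 11.59) in Cidec-low livers (1.40 ± 0.33, adjusted p = 0.0348), where it varied widely. The call of Cyp4a14 was lost without any 1 of MF-fed mice 1, 3, 4, 6 and 7 and C-fed mice 2, 4, 5 and 7 (adjusted p up to 0.0766), and that of Slc25a20 without any 1 of MF-fed mice 1 and 6 and C-fed mouse 2 (adjusted p up to 0.0585). The smallest adjusted p of all genes belonged to a transporter outside the lists, Slc16a5 of the monocarboxylate transporter family. It lay at 8.84 to 9.28 (median 8.97) in Cidec-high livers, against 6.97 to 8.07 (median 7.74) in Cidec-low livers, without overlap (1.38 ± 0.15, adjusted p = 0.00131).

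**Figure D3:**
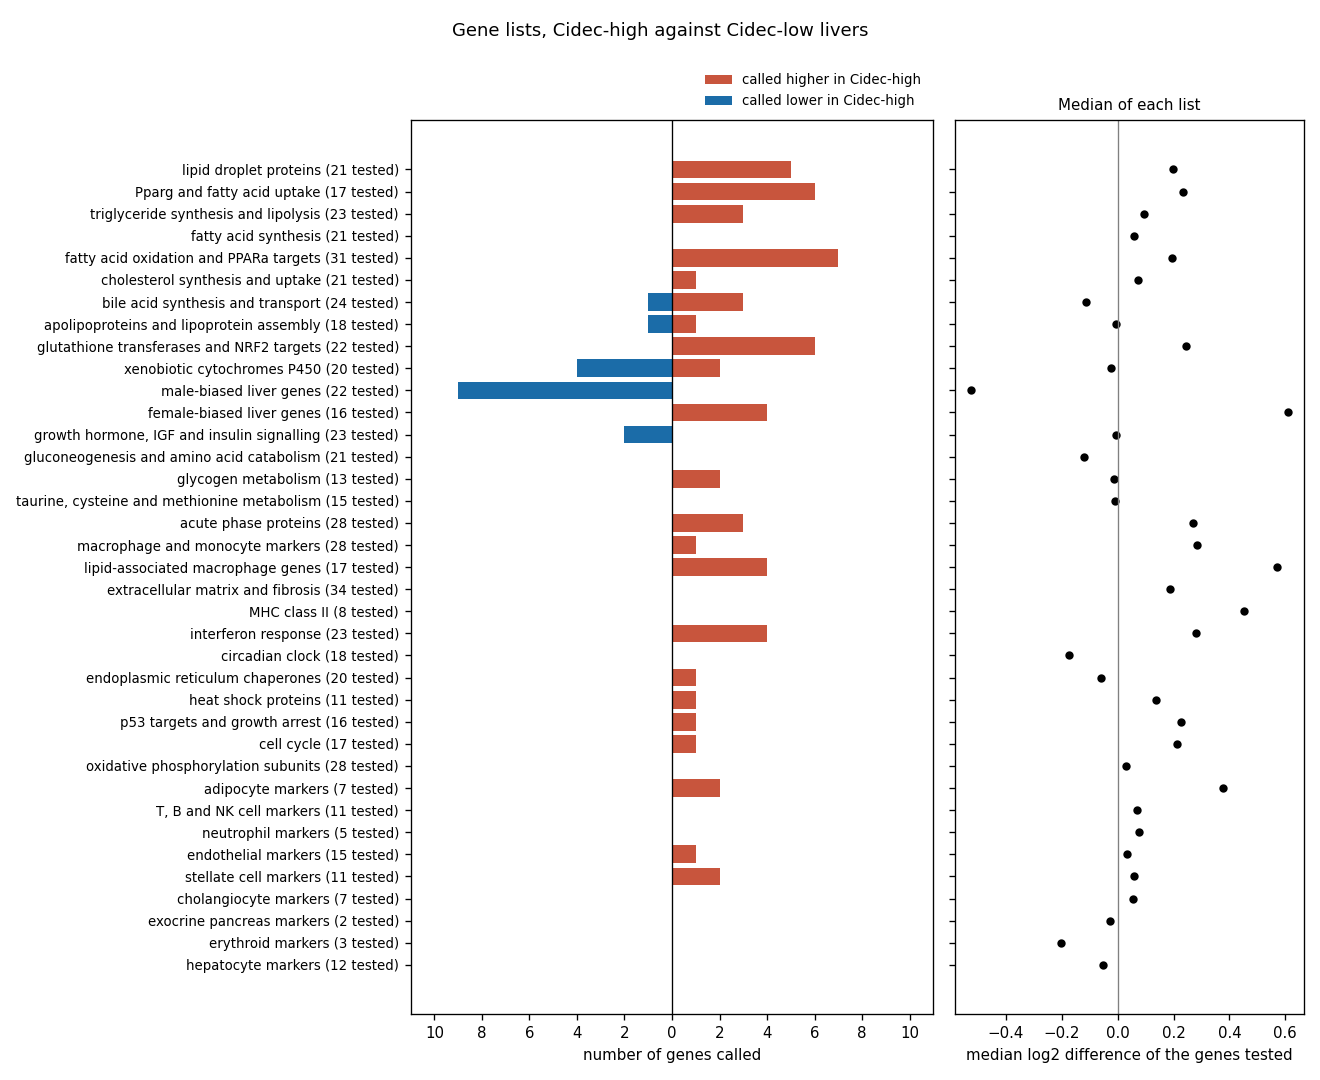
Left, the number of genes of each list called higher (right of 0) or lower (left of 0) in Cidec-high livers, with the number tested beside the name. Right, the median log2 difference of the genes tested in each list, where the median over all genes is 0.00. By number, the male-biased genes hold the most calls below, 9 of 22, and fatty acid oxidation the most calls above, 7 of 31. The share called above is larger in other lists, such as PPARγ and fatty acid uptake with 6 of 17.

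In cholesterol synthesis and uptake 1 of 21 genes was called, where 2.17% of all genes tested were called higher and 0.86% lower. This was Insig2, which holds the sterol sensor SCAP in the endoplasmic reticulum (0.80 ± 0.16, adjusted p = 0.018). That call was lost without MF-fed mouse 1 (adjusted p = 0.0505). Of 24 genes of bile acid synthesis and transport, 3 were called higher and 1 lower, with 8 above 0 and a median of -0.11. Cyp7b1, the oxysterol 7α-hydroxylase of the alternative bile acid pathway, was lower, at 9.20 to 10.67 (median 10.03) in Cidec-high livers and 10.66 to 11.91 (median 11.05) in Cidec-low livers (-1.13 ± 0.21, adjusted p = 0.012). The drug efflux pump Abcb1a was higher without overlap, at 6.43 to 7.03 (median 6.79) in Cidec-high livers, against 5.87 to 6.19 (median 6.06) in Cidec-low livers (0.72 ± 0.09, adjusted p = 0.00185). The basolateral bile acid exporter Abcc3 (0.52 ± 0.12, adjusted p = 0.0302) and the bile acid importer Slc10a2 (0.58 ± 0.15, adjusted p = 0.0446) were called higher too. Among 18 apolipoproteins and genes of lipoprotein assembly only Apoa4 was called higher and only Apom lower (-0.48 ± 0.12, adjusted p = 0.0483). The calls of Abcc3, Slc10a2 and Apom were lost without any 1 of 7, 9 and 9 mice, among them MF-fed mice 1, 3 and 6 and C-fed mouse 6 for each gene, with adjusted p up to 0.0784, 0.114 and 0.124.

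Among sex-biased genes of the liver, the male-biased ones gave calls in the lower direction and the female-biased ones in the higher direction. In rodents the pulses of growth hormone secretion keep a male pattern of liver genes on, and all mice here were male. Of 22 male-biased genes tested, 9 were called lower in Cidec-high livers and 0 higher, between 5 and 11 lower without 1 mouse. Only 2 of the 22 were above 0, the median was -0.52, and for 7 the classes did not overlap. Over all genes tested, 0.86% were called lower and 0.441% lay lower without overlap. Hsd3b5, a steroid reductase found in male liver, was the gene of largest difference anywhere. In Cidec-high livers it was 3.20, 5.38, 8.00 and 7.24 in MF-fed mice 4, 3, 5 and 7 and 6.71, 8.22, 9.42 and 9.37 in C-fed mice 5, 7, 4 and 1, against 10.43 to 11.26 (median 10.74) in Cidec-low livers. Every Cidec-high liver lay below every Cidec-low liver, and the difference was -3.60 ± 0.69, adjusted p = 0.0147. Gna14, a G protein subunit, was lower (-0.76 ± 0.10, adjusted p = 0.00186), and Cyp7b1 as given above. The complement genes C6 (-0.73 ± 0.12, adjusted p = 0.0077), C8b (-0.93 ± 0.17, adjusted p = 0.0118) and C8a (-0.28 ± 0.07, adjusted p = 0.0381) encode parts of the membrane attack complex and were lower as well. Smaller differences were called for Cyp2d9 (-0.51 ± 0.11, adjusted p = 0.0214), Nudt7 (-0.51 ± 0.12, adjusted p = 0.0348) and Ugt2b1 (-0.30 ± 0.08, adjusted p = 0.0446). The calls of Cyp2d9, C8a, Nudt7 and Ugt2b1 were lost without any 1 of 3, 9, 7 and 10 mice, among them MF-fed mice 1, 2 and 6 for each gene, with adjusted p up to 0.0587, 0.0962, 0.0905 and 0.105. The calls of the other 5 held in all 14 fits. The major urinary protein genes, which are near-identical copies of each other and share probes, did not follow this pattern, with Mup20 at -0.04 (adjusted p = 0.667) and Mup6 at 0.15 (adjusted p = 0.349).

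Female-biased genes are normally silent or low in male liver. Of the 16 tested, 4 were called higher and 0 lower (between 3 and 6 without 1 mouse), 15 were above 0 and the median was 0.61. The organic anion transporter gene Slc22a27 lay at 6.09 to 7.67 (median 7.33) in Cidec-high livers, against 4.28 to 6.33 (median 5.72) in Cidec-low livers (1.57 ± 0.21, adjusted p = 0.00196). Its neighbour on chromosome 19, Slc22a26, differed by 0.97 ± 0.20, adjusted p = 0.018, and Hao2, a peroxisomal hydroxy acid oxidase, by 1.04 ± 0.20, adjusted p = 0.0152. For Hao2, 5 of the 6 Cidec-low livers were below the intensity of 20. The call of Fmo2, a flavin monooxygenase (0.57 ± 0.14, adjusted p = 0.0409), was lost without any 1 of MF-fed mice 1, 2, 4, 5, 6 and 7 and C-fed mice 2, 3, 5 and 7 (adjusted p up to 0.101). Cyp2b9, the gene of largest difference in the list, was not called (2.32 ± 0.69, adjusted p = 0.08). Of 23 genes of growth hormone, IGF and insulin signalling 0 were called higher and 2 lower, where 0.86% of all genes tested were called lower. Igfbp2, a binding protein of insulin-like growth factors, was lower (-0.91 ± 0.18, adjusted p = 0.0156), at 8.81 to 10.52 (median 9.77) in Cidec-high livers and 10.18 to 10.96 (median 10.68) in Cidec-low livers. Egfr, the receptor of epidermal growth factor and a growth hormone-dependent gene in mouse liver, was lower (-0.51 ± 0.12, adjusted p = 0.0308), a call lost without any 1 of MF-fed mice 1, 2, 4, 6 and 7 and C-fed mouse 6 (adjusted p up to 0.0706).

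**Figure D4:**
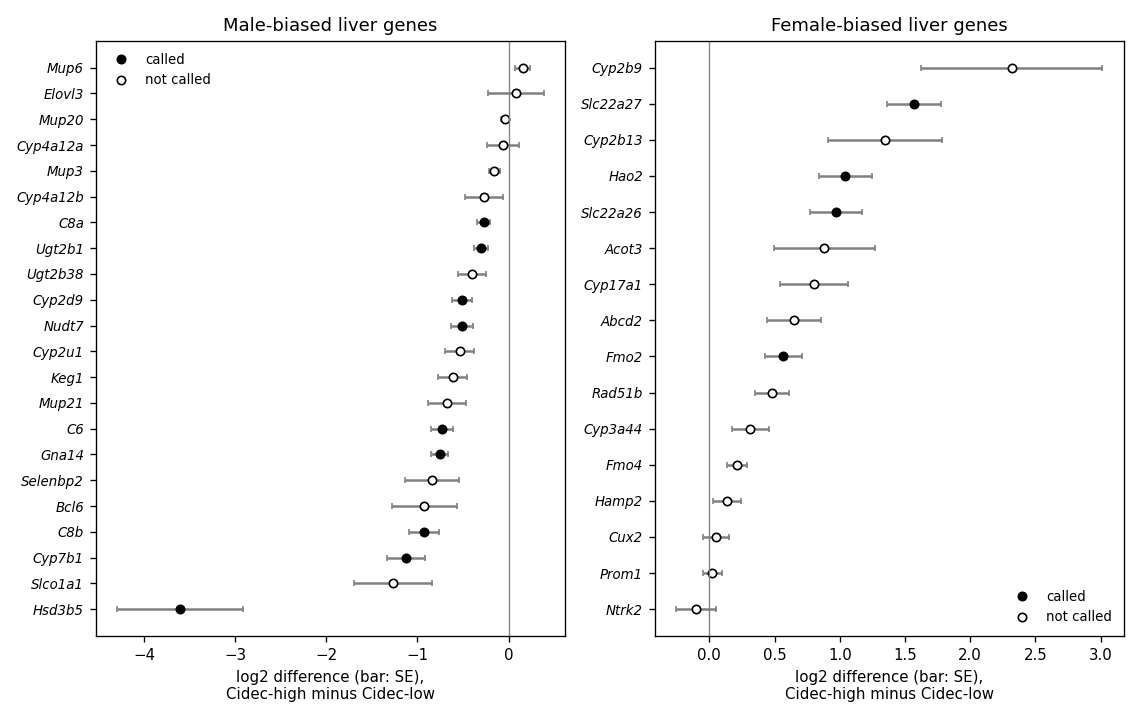
Log2 difference between Cidec-high and Cidec-low livers for the male-biased genes (left) and the female-biased genes (right) that passed the intensity minimum, with the standard error as a bar. Filled points were called and open points were not. Of 22 male-biased genes 2 lie above 0, and of 16 female-biased genes 15 do.

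Genes of detoxification gave calls in both directions. Among glutathione transferases and NRF2 targets 6 of 22 were called higher and 0 lower, with 20 above 0 and a median of 0.25, and between 2 and 7 were called higher without 1 mouse. Nqo1, a quinone reductase and a standard readout of NRF2, lay at 5.74 to 6.87 (median 6.38) in Cidec-high livers, against 5.19 to 5.95 (median 5.52) in Cidec-low livers (0.93 ± 0.14, adjusted p = 0.00552). Ugdh, which makes the sugar donor of glucuronidation, differed by 0.50 ± 0.09, adjusted p = 0.0102. Gstm3 (0.60 ± 0.14, adjusted p = 0.0316) and Gstm4 (0.38 ± 0.10, adjusted p = 0.0484) are glutathione transferases with close paralogs. Srxn1, which repairs peroxiredoxins (0.48 ± 0.11, adjusted p = 0.0289), and the aldehyde oxidase Aox1 (0.40 ± 0.09, adjusted p = 0.03) made up the 6. The calls of Srxn1, Aox1, Gstm3 and Gstm4 were lost without any 1 of 9, 5, 7 and 12 mice, among them MF-fed mice 2 and 6 and C-fed mouse 6 for each gene, with adjusted p up to 0.0706, 0.0668, 0.079 and 0.118. Of 20 xenobiotic cytochromes P450, 2 were called higher and 4 lower. Both genes called higher belong to the Cyp2c family, whose members resemble each other in sequence: Cyp2c39 lay at 7.40 to 7.97 (median 7.82) in Cidec-high livers, against 6.28 to 7.21 (median 6.74) in Cidec-low livers (0.97 ± 0.12, adjusted p = 0.00168), and Cyp2c38 differed by 1.01 ± 0.23, adjusted p = 0.0316. Lower were Cyp2d10, Cyp2d9, Cyp2c50 (-0.41 ± 0.10, adjusted p = 0.0446) and Cyp1a2, a constitutive P450 of hepatocytes (-0.46 ± 0.10, adjusted p = 0.0258). The calls of Cyp2c38, Cyp2c50 and Cyp1a2 were lost without any 1 of 7, 10 and 5 mice, among them MF-fed mouse 3 and C-fed mice 2 and 5 for each gene, with adjusted p up to 0.0766, 0.114 and 0.0714. Outside the list, Cyp2a22 was higher (1.90 ± 0.34, adjusted p = 0.0108).

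Acute phase genes gave calls in the higher direction only, where 2.17% of all genes tested were called. Of 28 acute phase genes 26 were above 0 with a median of 0.27, and 3 were called higher and 0 lower, between 2 and 8 without 1 mouse. Lcn2, a siderophore-binding protein that hepatocytes secrete in inflammation, lay at 10.60 to 13.10 (median 11.91) in Cidec-high livers, against 8.58 to 10.72 (median 10.23) in Cidec-low livers (1.97 ± 0.38, adjusted p = 0.0141). Il1rn, the antagonist of the interleukin 1 receptor, was higher (0.75 ± 0.15, adjusted p = 0.0147). The serum glycoprotein gene Orm2 was higher (1.79 ± 0.42, adjusted p = 0.0324), a call lost without any 1 of MF-fed mice 1, 2, 3, 4 and 6 and C-fed mice 3, 5 and 7 (adjusted p up to 0.0823). Saa2, serum amyloid A2, differed by 2.04 ± 0.53, adjusted p = 0.0507 and was not called.

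Among 28 markers of macrophages and monocytes, 24 were above 0 (median 0.28) and 1 was called, where 2.17% of all genes tested were called higher. The called gene was Fcgr3, a receptor for immunoglobulin G, at 7.40 to 7.81 (median 7.58) in Cidec-high livers and 6.82 to 7.33 (median 7.17) in Cidec-low livers without overlap (0.46 ± 0.09, adjusted p = 0.0164). The summed intensity of the list ran from 8007 to 12873 in Cidec-high and from 6935 to 9734 in Cidec-low livers. Genes of lipid-associated macrophages were next, with 4 of 17 called higher, 16 above 0 and a median of 0.57, and between 1 and 6 were called without 1 mouse. Lgals1, galectin 1, lay at 10.05 to 11.34 (median 10.76) in Cidec-high livers, against 9.00 to 10.08 (median 9.27) in Cidec-low livers (1.39 ± 0.18, adjusted p = 0.00196), and is the member whose call held in all 14 fits. Mmp12, the macrophage elastase, lay at 5.14 to 8.73 (median 6.47) in Cidec-high livers, against 4.44 to 5.20 (median 4.89) in Cidec-low livers (1.92 ± 0.46, adjusted p = 0.0375). Itgax, the integrin CD11c (0.86 ± 0.21, adjusted p = 0.0383), did not overlap between the classes, and Anxa5, a phospholipid-binding annexin, differed by 0.67 ± 0.16, adjusted p = 0.0382. The calls of Mmp12, Itgax and Anxa5 were lost without any 1 of 9, 9 and 10 mice, among them MF-fed mice 1, 2, 3, 4 and 6 and C-fed mice 2 and 6 for each gene, with adjusted p up to 0.0964, 0.0977 and 0.0964. Defining members of the list, Trem2 (0.58 ± 0.19, adjusted p = 0.103) and Gpnmb (1.60 ± 0.46, adjusted p = 0.07), were not called. The part of macrophage number in these differences was not tested.

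All 23 interferon response genes were above 0 (median 0.28), and 4 were called higher: the chemokine Cxcl10 (0.97 ± 0.22, adjusted p = 0.0266), Ifit2 (0.44 ± 0.11, adjusted p = 0.0431), Gbp3 (0.47 ± 0.12, adjusted p = 0.0483) and Rsad2 (0.75 ± 0.19, adjusted p = 0.0483). The calls of Cxcl10, Ifit2, Gbp3 and Rsad2 were lost without any 1 of 6, 8, 12 and 9 mice, among them MF-fed mice 2 and 6 and C-fed mice 2 and 5 for each gene, with adjusted p up to 0.0632, 0.108, 0.109 and 0.117. When arrays were centred on their medians 1 of the 23 was called. Extracellular matrix genes gave 0 calls in 34 (limma, 11 at an unadjusted p under 0.05), with 32 above 0 and a median of 0.19. Postn, periostin, which is deposited in scarring tissue, had the second largest difference of the list at 0.66 ± 0.18, adjusted p = 0.0593, after Mmp13 at 0.75 ± 0.28, adjusted p = 0.151, which was below the intensity of 20 in all 6 Cidec-low livers. Mmp13 was below it in every INT- and CR-fed liver too, so it passed the intensity minimum only through the Cidec-high class. With the level of Cidec entered as a number in place of the classes, 12 of the 34 were called higher. MHC class II genes, expressed by antigen-presenting cells, gave 0 calls in 8 (4 at an unadjusted p under 0.05). Their median difference was 0.45, and it was 0.71 within replicates 1 to 4 and 0.05 within replicates 5 to 7.

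Cdkn1a, which encodes the cell cycle inhibitor p21, had the second largest difference upwards. It lay at 7.40 to 11.20 (median 10.05) in Cidec-high livers, against 5.89 to 8.57 (median 7.12) in Cidec-low livers (2.36 ± 0.52, adjusted p = 0.0251). The estimate was 3.71 in MF-fed and 1.00 in C-fed mice, and the call was lost without any 1 of MF-fed mice 1, 2, 3 and 6 and C-fed mouse 5 (adjusted p up to 0.0649). It was the single gene called among 16 p53 targets and growth arrest genes (median 0.23). Over all genes tested 2.17% were called higher, so single calls here are not read as traits of a list. The cell cycle list held 1 call in 17, the topoisomerase Top2a (0.48 ± 0.12, adjusted p = 0.0493), below the intensity of 20 in 3 of the 6 Cidec-low livers. Of 20 endoplasmic reticulum chaperones and stress genes 1 was called, Atf3 (0.97 ± 0.22, adjusted p = 0.0264). Of 11 heat shock genes 1 was called as well, Hspb8 (0.48 ± 0.10, adjusted p = 0.0231). The calls of Top2a, Atf3 and Hspb8 were lost without any 1 of 12, 5 and 3 mice, among them MF-fed mice 1, 2 and 6 for each gene, with adjusted p up to 0.124, 0.0701 and 0.065. Subunits of oxidative phosphorylation gave 0 calls in 28, with 1 at an unadjusted p under 0.05, and a median of 0.03.

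Gluconeogenesis and amino acid catabolism gave 0 calls in 21 genes by limma, with 6 at an unadjusted p under 0.05, and 4 of the 21 were above 0 (median -0.12). Hal, histidine ammonia-lyase, had the largest difference at -0.41 ± 0.12, adjusted p = 0.0753, followed by Agxt at -0.40 ± 0.12, adjusted p = 0.0772. In glycogen metabolism 2 of 13 were called higher, the primer protein Gyg (0.40 ± 0.09, adjusted p = 0.0251) and Pgm2 (0.41 ± 0.10, adjusted p = 0.0426). The calls of Gyg and Pgm2 were lost without any 1 of 3 and 11 mice, among them MF-fed mice 1 and 6 and C-fed mouse 5 for each gene, with adjusted p up to 0.0668 and 0.108. Taurine, cysteine and methionine metabolism gave 0 calls in 15 (3 at an unadjusted p under 0.05), with the taurine-forming Csad at 0.39 ± 0.28, adjusted p = 0.479. The circadian clock gave 0 calls in 18 (6 at an unadjusted p under 0.05, median -0.17). Its genes of largest difference were Nfil3 (0.57 ± 0.26, adjusted p = 0.25) and Bhlhe41 (-0.55 ± 0.17, adjusted p = 0.0914), and the fasting and sacrifice times of the single mice are not given in the sources used here.

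Further genes stood among the largest differences without belonging to a list. Adgrf1, an adhesion G protein-coupled receptor, was lower in Cidec-high livers, at 4.21 to 6.72 (median 4.80) against 6.54 to 8.86 (median 7.54) in Cidec-low livers (-2.49 ± 0.32, adjusted p = 0.00185). Slc22a7, an organic anion transporter of the hepatocyte, lay at 6.12 to 7.70 (median 7.14) in Cidec-high livers, against 7.80 to 8.90 (median 8.42) in Cidec-low livers, without overlap (-1.30 ± 0.21, adjusted p = 0.00703). Scnn1a, a subunit of the epithelial sodium channel (-0.90 ± 0.16, adjusted p = 0.00994), Susd4, a regulator of complement (-1.03 ± 0.20, adjusted p = 0.0147), and Tbc1d30 (-0.94 ± 0.14, adjusted p = 0.0041) were lower without overlap too, and these calls held in all 14 fits. So did those of Lrtm1 (-0.96 ± 0.16, adjusted p = 0.0077) and 1700001L05Rik (-0.91 ± 0.17, adjusted p = 0.012). Map2k6, a kinase that activates p38, was lower (-1.14 ± 0.26, adjusted p = 0.0311). Adh6-ps1 (-1.0 ± 0.20, adjusted p = 0.0179) and the glutamate receptor gene Grm8 (-0.95 ± 0.20, adjusted p = 0.0189) lost their calls without MF-fed mouse 6 (adjusted p = 0.0526 and 0.0568). The odorant-binding Obp2a (-1.62 ± 0.39, adjusted p = 0.0383) was lower as well, and 6 of the 8 Cidec-high livers were below the intensity of 20. Among genes higher in Cidec-high livers, Themis, known from thymocyte selection, lay at 5.27 to 7.56 (median 6.43), against 4.64 to 5.91 (median 4.80) in Cidec-low livers (1.57 ± 0.29, adjusted p = 0.0118). The tubulin gene Tubb2a was higher (1.53 ± 0.31, adjusted p = 0.018), as was B430212C06Rik (1.57 ± 0.35, adjusted p = 0.0289), an unnamed transcript below that intensity in 4 of the 6 Cidec-low livers. B430212C06Rik was also below it in every INT- and CR-fed liver and so passed the intensity minimum only through the Cidec-high class. The calls of Map2k6, Obp2a, Tubb2a and B430212C06Rik were lost without any 1 of 5, 10, 2 and 8 mice, among them MF-fed mice 1 and 6 for each gene, with adjusted p up to 0.0803, 0.0944, 0.0532 and 0.0784.

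Markers of other cell types were measured beside these genes. Their calls stand against 2.17% of all genes tested that were called higher. Adipocyte markers held 2 calls in 7, Plin4 and Fabp4. Their summed intensity ran from 1201 to 3254 in Cidec-high and from 665 to 1103 in Cidec-low livers. This sum includes Cidec, which set the classes, so its ranges are no separate evidence. The defining adipocyte genes Adipoq, Lep, Adig, Acvr1c and Slc36a2 were below the intensity of 20 in all 14 livers, Retn differed by 0.00 (adjusted p = 0.991), and Plin1, the perilipin of adipocytes, by -0.22 ± 0.12, adjusted p = 0.331. Endothelial markers gave 1 call in 15, Lyve1, a hyaluronan receptor of sinusoidal endothelium, at 8.62 to 9.77 (median 8.83) in Cidec-high livers, against 7.90 to 8.49 (median 8.19) in Cidec-low livers without overlap (0.82 ± 0.16, adjusted p = 0.0156). The summed endothelial intensity ran from 7627 to 9156 in Cidec-high and from 7506 to 8324 in Cidec-low livers. Stellate cell markers gave 2 calls in 11, Lrat, which stores retinol as its ester (0.29 ± 0.07, adjusted p = 0.033), and Rgs5 (0.29 ± 0.07, adjusted p = 0.04), with sums of 3564 to 4145 in Cidec-high and 3393 to 3724 in Cidec-low livers. The calls of Lrat and Rgs5 were lost without any 1 of 7 and 11 mice, among them MF-fed mice 1, 3, 6 and 7 and C-fed mice 5 and 6 for each gene, with adjusted p up to 0.0827 and 0.0883. Markers of T, B and NK cells (11 tested), neutrophils (5), cholangiocytes (7), exocrine pancreas (2) and erythroid cells (3) gave 0 calls, with 1, 0, 1, 0 and 3 at an unadjusted p under 0.05. Their part in the differences above was not tested.

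Whether the classes differed to another extent on MF than on C was tested with an interaction term. By limma 0 of 13602 genes were called (0%), with 788 at an unadjusted p under 0.05, and 2 were called without C-fed mouse 7. The genes of smallest p were Spata22, at -0.70 in MF-fed and 0.03 in C-fed mice, and Slc10a6, at 0.47 in MF-fed and -0.31 in C-fed mice. Within the diets alone, 57 genes were called in MF-fed mice (4 against 3, 2299 at an unadjusted p under 0.05) and 0 in C-fed mice (4 against 3, 1157 at an unadjusted p under 0.05). For the genes whose estimates lay furthest apart, the difference of MF minus C was 2.71 ± 0.79 (adjusted p = 0.833) for Cdkn1a and -2.58 ± 1.26 (adjusted p = 0.876) for Hsd3b5.

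The limit used neither the INT-fed nor the CR-fed livers, so in both a relation to Cidec can be tested apart from it. Cidec ran from 6.20 to 9.26 log2 units (median 7.48) in the INT-fed mice, with INT-fed mouse 1 at the top, and from 5.26 to 6.06 in the CR-fed mice. Fitted on the level of Cidec in the 7 INT-fed mice, 8 of 13602 genes were called (0.0588%), 5 with a positive and 3 with a negative slope, and 1354 were at an unadjusted p under 0.05. Those of smallest p were Map3k13, a stress kinase, at 0.47 log2 units per unit of Cidec, Slc16a5 at 0.63, Hsd3b5 at -0.80, the Wnt pathway receptor Lgr5 at -0.43 and the mitochondrial carrier Slc25a34 at 0.40. Slc16a5 and Hsd3b5 had the same direction and a call between the 2 classes, while Map3k13, Lgr5 and Slc25a34 had none there. By limma 0 genes were called without INT-fed mouse 1, 3 or 5 (935, 1344 and 1044 at an unadjusted p under 0.05), and 1 was called without mouse 4 or mouse 6. Of the 295 genes called higher in Cidec-high livers 225 had a positive slope in INT-fed mice (76.3%, against 48.3% of all genes), and of the 117 called lower 103 had a negative one (88.0%, against 51.7%). Without INT-fed mouse 1 these shares were 62.4%, against 51.8% of all genes, and 65.8%, against 48.2%.

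For single genes, correlations with Cidec over the 7 INT-fed mice were computed for 31 genes, the 4 markers and those of largest difference, with exact permutation tests (two-sided, smallest possible p 0.0002). Plin4 ranked the mice as Cidec did, with a Spearman's rho of 1 (p = 0.0004, adjusted over the 31 p = 0.0123) and a Pearson's r of 0.89 (exact p = 0.0073, adjusted p = 0.0759). Without the 2 mice farthest from the median of Cidec, INT-fed mice 1 and 6, its r was 0.98 (exact p = 0.00833). Hsd3b5 had an r of -0.94 (exact p = 0.00179, adjusted p = 0.0554) and a rho of -0.93 (exact p = 0.00675, adjusted p = 0.0697), and Cdkn1a an r of 0.93 (exact p = 0.00357, adjusted p = 0.0554) and a rho of 0.89 (exact p = 0.0123, adjusted p = 0.0953). Without INT-fed mice 1 and 6, r was -0.74 for Hsd3b5 and 0.74 for Cdkn1a (exact p = 0.125 and 0.175 over the 5 mice left). Cidea had the sign of its class difference with all 7 mice (r = 0.73, exact p = 0.0732) and not without those 2 (r = -0.21). In all, 28 of the 31 genes had the sign of their class difference, while 10 had an unadjusted Pearson p under 0.05 and 0 an adjusted one. For 23 of the 31 the sign of r was the same with and without the 2 mice. These include Obp2a (r = 0.39 and 0.78) and Slc22a7 (r = 0.04 and 0.87), whose signs opposed their class differences. Without the 2 mice, Slc22a7 had an unadjusted exact p of 0.0333. The CR-fed mice, all with low Cidec, gave a different picture in level. Hsd3b5 lay at 3.08 to 4.46 (median 3.43) there, below 7 of the 8 Cidec-high livers, and Slc22a27 at 9.27 to 10.33 (median 9.75), above all of them. Plin4 lay at 6.36 to 8.18 (median 7.42) in the CR-fed mice. That range takes in all Cidec-low livers and passes the lowest Cidec-high liver at 7.91. In the CR-fed mice 42.7% of the genes called higher had a positive slope on Cidec, against 43.4% of all genes, and 50.4% of those called lower had a negative one, against 56.6%.

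**Figure D5:**
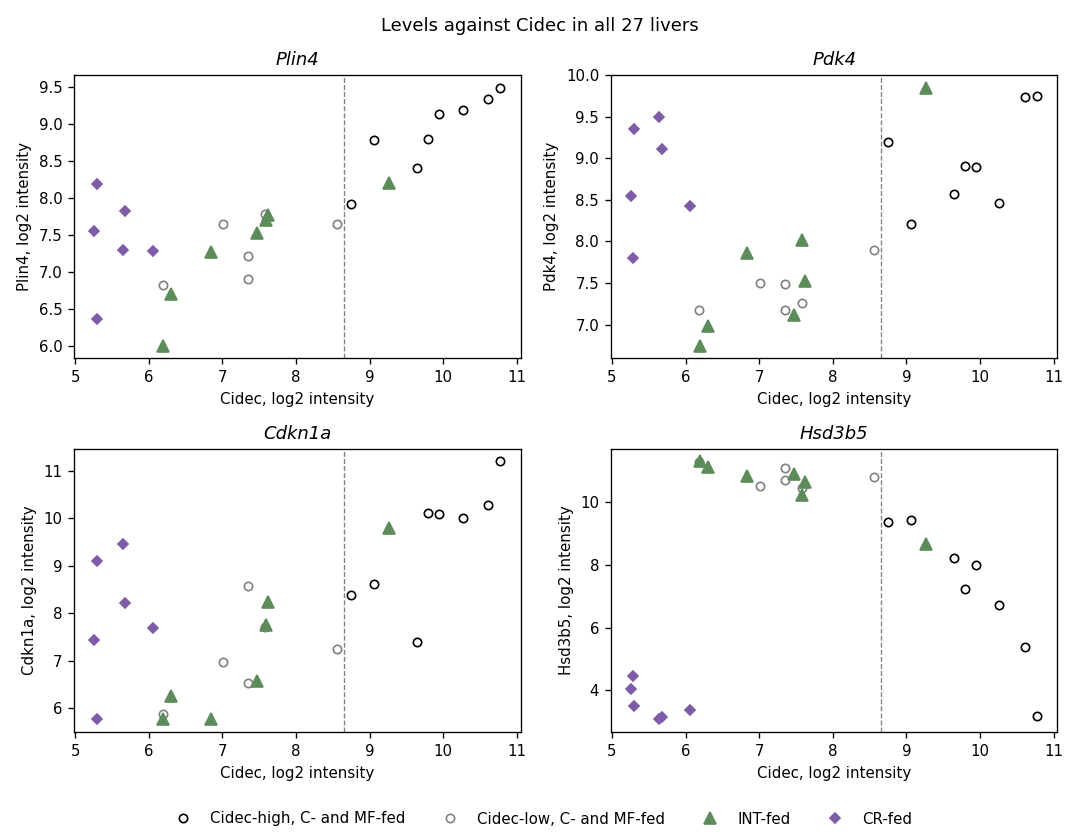
Log2 intensity of Plin4, Pdk4, Cdkn1a and Hsd3b5 (vertical axes) against that of Cidec (horizontal axes) in all 27 livers. Black circles are Cidec-high and grey circles Cidec-low livers of C- and MF-fed mice, triangles INT-fed and diamonds CR-fed mice, and the dashed line is the limit of 8.65. INT-fed mouse 1, with Cidec at 9.26, lies among the Cidec-high livers in Hsd3b5 at 8.67, and the CR-fed mice have Hsd3b5 between 3.08 and 4.46 at low Cidec.

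Whole lists behaved unequally in the INT-fed mice. In fatty acid oxidation 28 of 31 genes had a positive slope on Cidec, and 12 of 31 without INT-fed mouse 1. Acute phase genes had 27 of 28 positive, and 16 of 28 without that mouse. Lipid droplet proteins had 16 of 21, and 12 without it. For male-biased genes 6 of 22 slopes were positive, and 11 without it, and for female-biased genes 12 of 16, and 8 without it. Macrophage markers had 6 of 28 positive slopes with or without that mouse, and interferon response genes 5 of 23, and 1 without it.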

How the data were processed

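Liver RNA of 27 mice was hybridised to 27 arrays, and the values deposited by the authors are log2 intensities of 35556 probe sets after robust multiarray average (RMA, version not given in the sources used here), which equalises the distribution of values between arrays. The methods describe probe sets defined by Entrez gene, whereas the deposited table holds those of the array maker. Probe sets were named through the platform annotation, with symbols updated by Entrez ID to RefSeq GRCm38.p6 (18790 of 18820 genes). Those with several genes (1881) or no named gene (12457) were left out, and for the 1386 genes with several probe sets the one of highest mean was kept. Genes above an intensity of 20 on at least 5 of the 27 arrays were retained (13603, of which 13602 after Cidec was set aside). The groups are the diets of the labels, and Cidec-high and Cidec-low are classes made from a measured value.

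Classes were compared with limma 3.58.1 (R 4.3.3), with diet as a covariate in the 14 C- and MF-fed mice, and a gene was called where its p, adjusted by Benjamini and Hochberg over the genes tested, was under 0.05. The difference between diets was fitted as an interaction, and the INT-fed mice were fitted on their level of Cidec. Single correlations used exact permutation tests (scipy 1.17.1, Python 3.11.15). Differences are of Cidec-high minus Cidec-low livers. On arrays the number of mice limits the precision. The fits were tested on simulated data.

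Genes were named by rule: the markers, the 15 called genes of largest difference in each direction, up to 4 called members of each list by smallest p or the 2 of largest difference where none was called, and up to 5 called genes, or the 2 of smallest p, for the interaction and for the INT-fed mice. Further list members were named after their values were seen. The classes, the gene lists and the tests were chosen with earlier results of these data known. Alternatives covered the intensity minimum, scaling, variance model, array weights, probe set rule, covariates, mice included and the limit, and 2 more for the slope on Cidec (CR-fed mice, and INT- and CR-fed mice together) were chosen after seeing the data.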

Additional observations from a re-analysis of the deposited data

Results flagged for a closer look

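Single mice stood apart from their class in 15 of 214 groups of values looked at, where chance gives about 1 in 20. Values are log2 intensities, each with that of the nearest mouse of the class. Among markers and named genes of Cidec-high livers, C-fed mouse 1, the liver nearest to the limit, had Cd36 at 9.96, against 10.72, and B430212C06Rik at 3.73, against 5.40. MF-fed mouse 4 had Cyp2d9 at 10.50, against 11.00, MF-fed mouse 5 had Obp2a at 6.10, against 4.56, and MF-fed mouse 3 had Lrat at 9.24, against 9.02. C-fed mouse 7 had Ltf, a neutrophil gene, at 4.81, against 4.53, and C-fed mouse 5 had the pancreatic Clps at 5.49, against 5.69.

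Among Cidec-low livers, MF-fed mouse 6, the liver of lowest Cidec, had Fabp4 at 6.04, against 6.37, and the respiratory chain subunit Ndufa9 at 10.60, against 10.07. MF-fed mouse 1 had Hao2 at 4.55, against 3.80, and Rsad2 at 7.73, against 7.13. MF-fed mouse 2, just below the limit, had Themis at 5.91, against 5.00. C-fed mouse 6 had Egfr at 12.37, against 11.90, and the T cell gene Cd4 at 6.17, against 5.58. C-fed mouse 3 had Clps at 5.99, against 5.69.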

How the results depend on the processing

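Counts below are of genes called by limma, 412 as reported (295 higher and 117 lower in Cidec-high livers). All 412 kept their sign under every alternative that tested them, 386 of 386 where an intensity above 20 was required on all 27 arrays. The alternatives reuse mice in which these genes were called, so a kept sign is no separate evidence. Of the 76 named genes called, 42 kept their call in every fit without 1 mouse and 0 changed sign. Without 1 mouse at a time the count ranged from 165 to 593 (123 to 423 higher, 42 to 170 lower), lowest without MF-fed mouse 6. Within replicates 1 to 4 it was 25 (18 higher, 7 lower) and within replicates 5 to 7 it was 64 (38 and 26). In MF-fed mice alone it was 57 (34 and 23) and in C-fed mice alone 0, with 1157 at an unadjusted p under 0.05. These fits use fewer mice. With all 27 arrays in the fit 775 were called (519 and 256) and with Cidec as a number 1332 (798 and 534). A limit of 8 in place of 8.65, which moved only MF-fed mouse 2 to the Cidec-high class, gave 70 (61 and 9). A limit of 9, which moved only C-fed mouse 1 to the Cidec-low class, gave 558 (408 and 150). With replicates 1 to 4 and replicates 5 to 7 entered as 2 levels of a block, 548 were called (339 and 209). The labels do not call these a batch, and the division was taken from the spread of the array values. After median centring 218 were called higher and 180 lower. The cause was not tested.

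With the replicate number as a block 0 genes were called (916 at an unadjusted p under 0.05). Mice that share a number do not otherwise pair, since their deviations from the fitted class and diet means correlated at -0.35 to 0.20. In replicates 2, 4, 5, 6 and 7 the C- and MF-fed mice were of the same class. Under this block the class difference thus rested on replicates 1 and 3, and the block takes up degrees of freedom. The difference between diets gave 0 to 2 calls without 1 mouse. The slope on Cidec in INT-fed mice gave 0 to 10 calls without 1 mouse, 0 in CR-fed mice (792 at an unadjusted p under 0.05) and 10 in both together. Dim genes near an intensity of 20, Cidea and Hao2 among them, are limited by the array's background.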
